A study of Mus musculus with 9 samples.

Results

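B2m, H2-D1, H2-K1, H2-T23, Tap1, Nlrc5, Stat2, Irf9 and Rnf213 belong to major histocompatibility complex (MHC) class I antigen presentation and to the interferon response. They were taken by symbol as a fixed set, 9 of the 31053 genes listed for this single-nucleus RNA sequencing of mouse brain. The set was chosen with earlier results of these data known. It was followed through every class of nuclei that could be named from marker genes, with microglia and brain endothelial cells (BECs) first. The 9 male C57BL/6 mice gave 1 library each and formed 3 groups of 3. Young mice were 5 months old and aged mice 19 months old. By the authors' methods, the young mice came from Jackson Laboratories and the aged mice from the National Institute on Aging. Differences with age below therefore cannot be told apart from differences of source. Young AAV-EGFP mice and aged AAV-EGFP mice received an adeno-associated virus (AAV) coding for EGFP, a fluorescent protein, and served as controls. Aged AAV-B3GNT3 mice received the same kind of virus coding for B3GNT3, an enzyme that extends the sugar chains of mucin-domain glycoproteins. In all 3 groups the AAV-PHP.V1 capsid and a shortened claudin-5 promoter direct the transgene to endothelial cells, and tissue was taken 8 weeks after the injection. Every mouse therefore carried a virus, and no group was without one.

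MHC class I molecules display peptides from inside the cell to CD8 T cells. Each consists of a heavy chain, which the genes H2-K1, H2-D1 and H2-T23 encode, and the shared light chain beta-2 microglobulin, encoded by B2m. Tap1 is a subunit of the transporter that carries peptides into the endoplasmic reticulum for loading, and Nlrc5 is the transactivator of class I genes. Stat2 and Irf9 are subunits of the factor that type I interferon signalling sends to the nucleus, where it switches on interferon-stimulated genes. Rnf213, a large ubiquitin ligase, is itself interferon-inducible. In healthy brain parenchyma, endothelial cells and microglia are known as the main carriers of class I molecules.

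Promoter sequence is shown for H2-K1, which passed the test in more classes than any other member, and for B2m and H2-D1, the chains whose levels followed it. The sequences came from RefSeq (build GRCm38.p6), where 8 of the 9 genes had an entry. Bases in capitals are matches to 3 motifs that were chosen with the sequences in view. GGGATTCCC is a form of the class I enhancer A element, to which NF-kappaB factors bind. AANNGAAA, or its reverse complement, is the core of an interferon regulatory factor site, and TGACG is the core of the X2 box of the SXY module through which the class I transactivator acts. The H2-K1 stretch lies at chr17:34000378-34000547 on the minus strand and the B2m stretch at chr2:122147487-122147656 on the plus strand, both from 200 to 31 bases before the start.
H2-K1: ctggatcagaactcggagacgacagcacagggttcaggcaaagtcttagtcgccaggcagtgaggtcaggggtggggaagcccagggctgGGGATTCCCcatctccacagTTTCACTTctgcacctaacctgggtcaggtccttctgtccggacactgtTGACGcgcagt
B2m: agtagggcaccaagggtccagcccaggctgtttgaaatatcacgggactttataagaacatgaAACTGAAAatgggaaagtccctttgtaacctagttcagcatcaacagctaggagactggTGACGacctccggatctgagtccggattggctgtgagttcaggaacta

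The 28 bases from the enhancer A element to the interferon regulatory factor core are shown for both heavy chain genes, which holds both capital motifs within a short stretch. They lie at chr17:34000430-34000457 on the minus strand for H2-K1 and at chr17:35262924-35262951 on the plus strand for H2-D1. Starts here are those of RefSeq. The GENCODE span of H2-D1 begins further upstream, so this H2-D1 stretch lies before the RefSeq start but inside the GENCODE gene.
H2-K1: GGGATTCCCcatctccacagTTTCACTT
H2-D1: GGGATTCCCcatctcctcagTTTCACTT

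These stretches differed at 1 position, A17T, with the H2-K1 base first and positions counted from 1 at the 5′ end of the stretch. Over the 250 bases before each start, H2-K1 and H2-D1 matched at 166 of 190 aligned bases and shared a longest identical run of 47 bases, whereas the longest run that H2-K1 shared with B2m was 8 bases. Both strands of the 250 bases before the start were searched in 27025 promoters. GGGATTCCC occurred in 0.311% of them, and among the 8 members only in H2-K1 and H2-D1. AANNGAAA occurred in 21.6% of promoters and, among the members, in B2m, H2-K1, H2-D1, H2-T23 and Stat2. TGACG occurred in 17.9% and was present in B2m, H2-K1, H2-D1 and Tap1. The Rnf213 and Irf9 windows matched none of the 3 motifs. A match describes the letters and is not a measured binding site.

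By GENCODE vM21 the genes lie on 6 chromosomes of GRCm38, and 4 of them on chromosome 17. H2-K1 spans chr17:33996017-34000347 on the minus strand, H2-D1 chr17:35262730-35267499 on the plus strand, H2-T23 chr17:36029773-36032855 on the minus strand and Tap1 chr17:34187553-34197225 on the plus strand. B2m lies at chr2:122147686-122153083, Nlrc5 at chr8:94434356-94527272, Stat2 at chr10:128270559-128292849, Irf9 at chr14:55603571-55610030 and Rnf213 at chr11:119393100-119487418, all on the plus strand. On the opposite strand, Patl2 overlaps all of B2m, A930015D03Rik all 3083 bases of H2-T23, A930037H05Rik 38631 bases of Rnf213, 9330175E14Rik 748 bases of Nlrc5 and Psmb9 212 bases of Tap1. On the same strand, Irf9 shares 123 bases with Rnf31 and Nlrc5 shares 60 with Mir7072. Whether counting used the strand is not known, so reads of such partners cannot be told apart. Of the 510 possible 91-base reads within the last 600 bases of H2-T23, 17.1% also occur in other transcripts, H2-D1 and H2-T22 among them, so its counts are uncertain. The same count was 0 of 510 for each of the other 8 genes.

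The libraries held 47332047 to 79964605 unique molecular identifiers (UMIs), and 5785 to 9283 nuclei per library were kept, with a median of 2967.5 to 5333 UMIs per nucleus. Libraries shared between 0.108 and 0.414% of the smaller library's barcodes. Of 70389 nuclei, 1920 were microglia, with 109 to 332 per mouse, and 747 were BECs, with 51 to 118 per mouse. All 8 microglial and all 9 endothelial markers were detected in their class. The mouse gene B3gnt3 had 7, 3 and 1 UMIs in the BECs of young mice, 0 in each aged AAV-EGFP mouse and 0, 2 and 4 in aged AAV-B3GNT3 mice, and whether transgene RNA is counted under it was not determined. The labels give no batch.

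Levels below are CPM, the UMIs of a gene per 1000000 UMIs of the genes above the count limit of the test. They were taken per class and mouse, after scaling between mice of a class. Averages over all 9 mice use all UMIs of the class instead, without the scaling. Heavy and light chain RNA was highest in BECs among the named classes. Averaged over all 9 mice without the scaling, H2-K1 stood at 220 CPM in BECs, 63.1 in microglia, 44.5 in fibroblasts, 35.9 in pericytes, 29.3 in astrocytes, 22.6 in choroid plexus epithelial cells, 17.6 in oligodendrocyte precursors, 10.1 in oligodendrocytes, 2.53 in inhibitory neurons and 1.91 in excitatory neurons. On the scaled levels, the lowest BEC sample, at 126 CPM, lay above the highest microglial sample, at 104 CPM. Microglia overlapped with fibroblasts and fibroblasts with pericytes in their samples' ranges. The genes counted in the denominator differ between classes, and in BECs the H2-K1 average was 257 CPM on the scaled levels. H2-D1 was also separate at the top, with 79.5 to 313 CPM in BECs and 18.8 to 57.5 in microglia. B2m was at 101.7 CPM in BECs and 72.3 in microglia on average, and their ranges over samples overlapped, at 39.0 to 233 and 50.3 to 115 CPM. Its next classes were fibroblasts at 19.7 CPM and pericytes at 19.3.

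The regulators had flatter profiles or other leading classes. Stat2 ranged from 87.3 CPM in BECs to 24.3 in inhibitory neurons, and Irf9 from 32.4 CPM in BECs to 4.87 in oligodendrocytes. Rnf213 was at 98.9 CPM in BECs, 97.0 in microglia and 85.7 in fibroblasts, which overlapped, and at 6.28 to 6.96 CPM in neurons. Among the named classes, Tap1 and Nlrc5 were highest in microglia, at 14.7 and 21.7 CPM, with BECs next at 9.91 and 17.5 CPM and overlapping ranges. H2-T23 was highest in BECs at 26.2 CPM, followed by microglia at 11.8. Nlrc5 had 0 UMIs in pericytes, a count that allows up to 3.

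**Figure D1:**
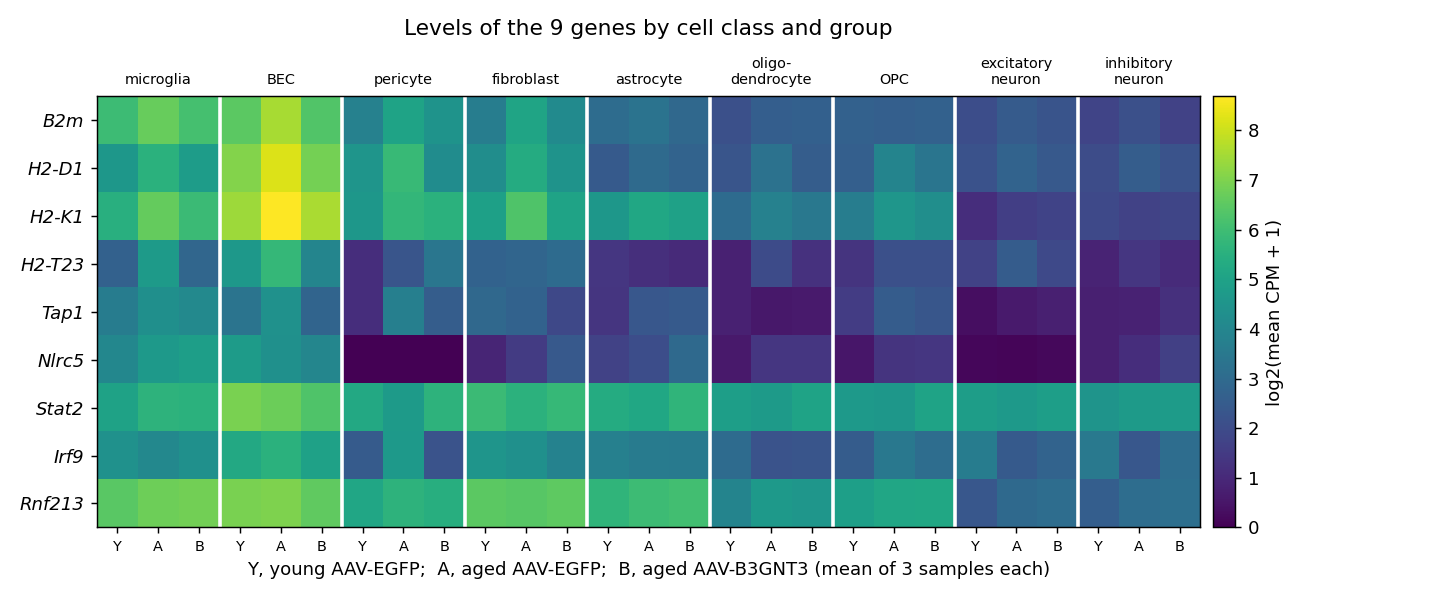
Heat map of log2(mean CPM + 1) for the 9 genes (rows) in 9 cell classes, each split by group (Y, young with EGFP, A, aged with EGFP, B, aged with B3GNT3, mean of 3 samples each, OPC, oligodendrocyte precursor). H2-K1 and H2-D1 are brightest in BECs of aged AAV-EGFP mice, and the neuronal columns are darkest for H2-K1.

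Across the 10 class means and 13509 genes, the profiles most like H2-K1 were those of Rpl7a (Pearson r 0.970) and Gng5 (0.969), and those most like H2-D1 were Uap1 (0.969) and Ctnnb1 (0.966). B2m was nearest to Cracr2b (0.991) and Psmb9 (0.982), the latter a subunit of the immunoproteasome that trims class I peptides. H2-T23 was nearest to Efnb1 (0.947) and Elk3 (0.943), and Tap1 to Smad2 (0.969) and Etv6 (0.966). The nearest profiles were Anks1 (0.934) and Zfp367 (0.934) for Nlrc5 and Nradd (0.976) and Ubtf (0.954) for Stat2. Irf9 was nearest to Agpat2 (0.955) and Nacc1 (0.953), and Rnf213 to Fignl2 (0.979) and Gm10353 (0.975). The class means come from the same 9 libraries, and the correlations describe 10 points each.

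In microglia, the resident macrophages of the brain parenchyma, H2-K1 rose with age. It was at 37.8, 41.3 and 50.4 CPM in young AAV-EGFP mice, at 104, 91.4 and 95.1 in aged AAV-EGFP mice and at 52.6, 64.9 and 62.9 in aged AAV-B3GNT3 mice, from 224 UMIs in all. The 3 groups did not overlap, with the young lowest and the aged AAV-EGFP mice highest. How many of all genes separated groups of 3 mice in this way was not counted, in microglia or in any class below. The ageing difference was 2.27-fold (log2 fold change 1.18 ± 0.26 SE, adjusted p = 0.0115, edgeR's quasi-likelihood test). H2-K1 was the only 1 of 6 testable members to pass, and 8.47% of the 7487 genes tested in microglia passed for ageing. The adjusted p became 0.054 without young AAV-EGFP replicate 1 and 0.0544 with DESeq2.

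The other class I genes of microglia were also higher in aged AAV-EGFP than in young mice, and those above the count limit of the test did not pass. B2m was at 62.9, 67.5 and 50.4 CPM in young mice, 94.3, 91.4 and 115 in aged AAV-EGFP mice and 50.3, 72.5 and 84.5 in aged AAV-B3GNT3 mice. The aged AAV-EGFP group stood above both others without overlap (log2 0.73 ± 0.26 for ageing, adjusted p = 0.0995). H2-D1 was at 25.2, 18.8 and 25.2 CPM in young mice, 50.5, 29.5 and 57.5 in aged AAV-EGFP mice and 32.0, 28.6 and 19.5 in aged AAV-B3GNT3 mice. Young and aged AAV-EGFP mice did not overlap (0.98 ± 0.39, adjusted p = 0.129), but the aged AAV-B3GNT3 mice overlapped with both. H2-T23 was below the count limit of the test, with 41 UMIs over the 9 mice, and its values of 5.03, 11.3 and 0 CPM in young mice, 20.2, 29.5 and 27.5 in aged AAV-EGFP mice and 6.86, 7.63 and 4.34 in aged AAV-B3GNT3 mice again set the aged AAV-EGFP mice apart. With no filter on low counts H2-T23 was tested and passed for ageing (2.16 ± 0.68, adjusted p = 0.0332).

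The regulators in microglia overlapped between young and aged AAV-EGFP mice. Stat2 was at 45.3, 18.8 and 29.4 CPM in young and 57.2, 35.4 and 52.5 in aged AAV-EGFP mice (log2 0.56 ± 0.35, adjusted p = 0.366). Nlrc5 was at 17.6, 7.50 and 21.0 CPM in young and 43.8, 5.90 and 25.0 in aged AAV-EGFP mice (0.64 ± 0.59, adjusted p = 0.562). Rnf213 differed by 0.27 ± 0.24 (95% interval −0.24 to 0.78). Tap1 (53 UMIs) and Irf9 (63 UMIs) were below the count limit of the test. The median log2 change of the 6 tested members with age was 0.68, beside −0.02 for all genes tested. The level of microglial identity genes moved too, as the 8 markers summed to 5673 to 6399 CPM in young, 7862 to 8738 in aged AAV-EGFP and 6498 to 7329 in aged AAV-B3GNT3 mice, and 2 of the 8 rose with age. T cell markers in microglia summed to 0 to 5.03, 12.5 to 17.7 and 2.17 to 22.9 CPM in the same groups. Macrophage markers summed to 10.1 to 12.6, 2.95 to 7.50 and 6.86 to 15.3 CPM, with Cd163, Lyve1, Ms4a7 and Pf4 at 0 in young and aged AAV-EGFP mice. The part of these markers in the H2-K1 result was not tested.

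In BECs, which line the brain's vessels and form its barrier, H2-K1 also rose with age. It was at 126, 129 and 255 CPM in young mice, 384, 367 and 479 in aged AAV-EGFP mice and 213, 188 and 176 in aged AAV-B3GNT3 mice, from 372 UMIs. The aged AAV-EGFP mice stood above all others, and the remaining groups overlapped. The ageing difference was 2.46-fold (log2 1.30 ± 0.30 SE, adjusted p = 0.0413), and 1 of 5 testable members passed where 1.62% of 4761 genes did. This call was a narrow one. The adjusted p became 0.207, 0.164 and 0.0521 without young replicates 1, 2 and 3, and 0.0711 and 0.164 without aged AAV-EGFP replicates 2 and 3. It was 0.0551 with DESeq2, 0.109 with only both groups in the fit, 0.0583 after subtraction of free RNA, 0.157 with no doublets removed and 0.0987 with the doublet rate doubled.

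H2-D1 followed H2-K1 closely in BECs. It was at 79.5, 115 and 203 CPM in young mice, 279, 302 and 313 in aged AAV-EGFP mice and 86.4, 96.2 and 163 in aged AAV-B3GNT3 mice. Again the aged AAV-EGFP mice did not overlap with the others, with an ageing difference of 1.21 ± 0.34 (adjusted p = 0.0806). B2m was at 65.0, 101 and 104 CPM in young mice, 209, 114 and 233 in aged AAV-EGFP mice and 99.7, 101 and 39.0 in aged AAV-B3GNT3 mice (1.07 ± 0.37, adjusted p = 0.161). H2-T23, with 45 UMIs and no test, was at 32.5, 9.20 and 29.0, then 61.0, 65.2 and 36.9, then 6.65, 24.1 and 13 CPM in the same order. All 4 class I genes were higher in every aged AAV-EGFP mouse than in any aged AAV-B3GNT3 mouse, although the 3 genes tested did not pass for that difference. How many of all BEC genes separated in this way was not counted.

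Stat2 in BECs was at 116, 96.6 and 151 CPM in young mice, 113, 89.7 and 111 in aged AAV-EGFP mice and 66.5, 86.6 and 78.0 in aged AAV-B3GNT3 mice. The aged AAV-B3GNT3 mice were lowest without overlap, and no difference passed (log2 −0.19 ± 0.31 for ageing, adjusted p = 0.810). Rnf213 differed with age by −0.01 ± 0.43 (95% interval −0.93 to 0.90). Tap1, Nlrc5 and Irf9 had 16, 31 and 55 UMIs over the 9 mice and were not tested. The median log2 change with age was 1.07 over the 5 tested members and 0.01 over all genes tested.

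Other markers moved along with class I RNA in BECs. The 9 endothelial markers summed to 10933 to 12298 CPM in young, 17352 to 19463 in aged AAV-EGFP and 11594 to 14068 in aged AAV-B3GNT3 mice. Of them, Cldn5, the tight junction protein of the barrier, and Flt1, a receptor for VEGF, rose with age, and Cldn5 fell in aged AAV-B3GNT3 against aged AAV-EGFP mice. The 8 microglial markers in BECs summed to 122 to 170, 227 to 253 and 101 to 286 CPM. The part of these shifts in the class I levels was not tested. Cldn5 is also the source of the promoter that drives the transgene.

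**Figure D2:**
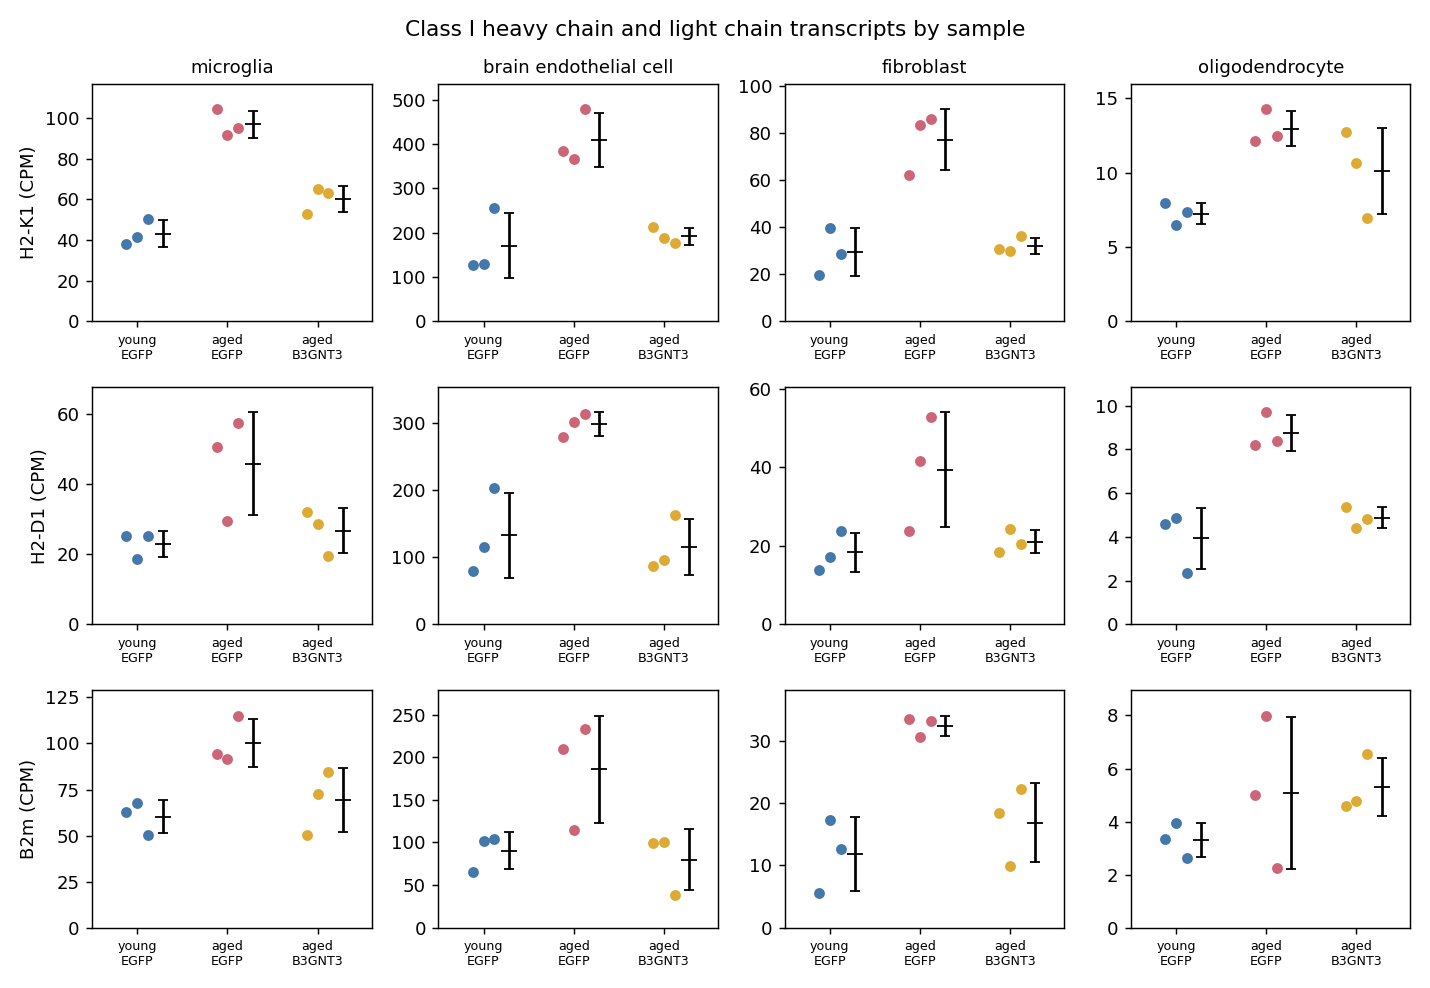
H2-K1, H2-D1 and B2m (rows) in microglia, BECs, fibroblasts and oligodendrocytes (columns), in CPM for each of the 3 mice per group; the bars beside the points are the mean ± SD, and each panel has its own scale. In the H2-K1 panels every aged AAV-EGFP mouse lies above every young mouse.

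The number of nuclei with a class I UMI was compared at an equal depth, as the mean over all ways of drawing 1000 UMIs from each nucleus. In microglia, 10.3, 12.3 and 12.4% of nuclei had a UMI of B2m, H2-D1, H2-K1 or H2-T23 in young mice, 21.7, 18.9 and 23.8% in aged AAV-EGFP mice and 12.2, 15.3 and 15.2% in aged AAV-B3GNT3 mice. In BECs the shares were 23, 23.8 and 36.6%, then 51.5, 51.9 and 53.2%, then 28.5, 31.3 and 33.5%. In both classes all aged AAV-EGFP mice lay above all other mice. The means differed with age by 9.81 percentage points in microglia and 24.4 in BECs, and between aged AAV-B3GNT3 and aged AAV-EGFP mice by −7.28 and −21.1 percentage points. Each of these gave p = 0.1 in a two-sided exact permutation test, the smallest p that 3 mice against 3 allow. The share therefore cannot reach the threshold of 0.05 in this design.

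Excitatory neurons, in which H2-K1 was lowest, gave mean shares at the same 1000 UMIs of 1.04% in young mice, 1.91% in the aged AAV-EGFP group and 1.53% after AAV-B3GNT3. The shares in microglia and BECs were above this level in every mouse. Without equalizing depth the means were 21.4, 29.8 and 24.7% in microglia, 49, 63.9 and 52.5% in BECs and 10.3, 16.9 and 14.4% in excitatory neurons. The separation was then lost in part, as aged AAV-B3GNT3 overlapped with aged AAV-EGFP mice in microglia (exact permutation p = 0.3) and young with aged AAV-EGFP mice in BECs (exact permutation p = 0.2). In excitatory neurons all groups then overlapped. Median depth was 1863 to 2114 UMIs in the microglia of young mice, 1273 to 1573 in aged AAV-EGFP and 1537.5 to 2073 in aged AAV-B3GNT3 mice, 1696 to 2408 in BECs and 8435.5 to 12279 in excitatory neurons. Nuclei below 1000 UMIs were left out, 1 to 7 microglia per young mouse, 26 to 60 per aged AAV-EGFP mouse, 1 to 29 per aged AAV-B3GNT3 mouse and 0 to 12 BECs per mouse.

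**Figure D3:**
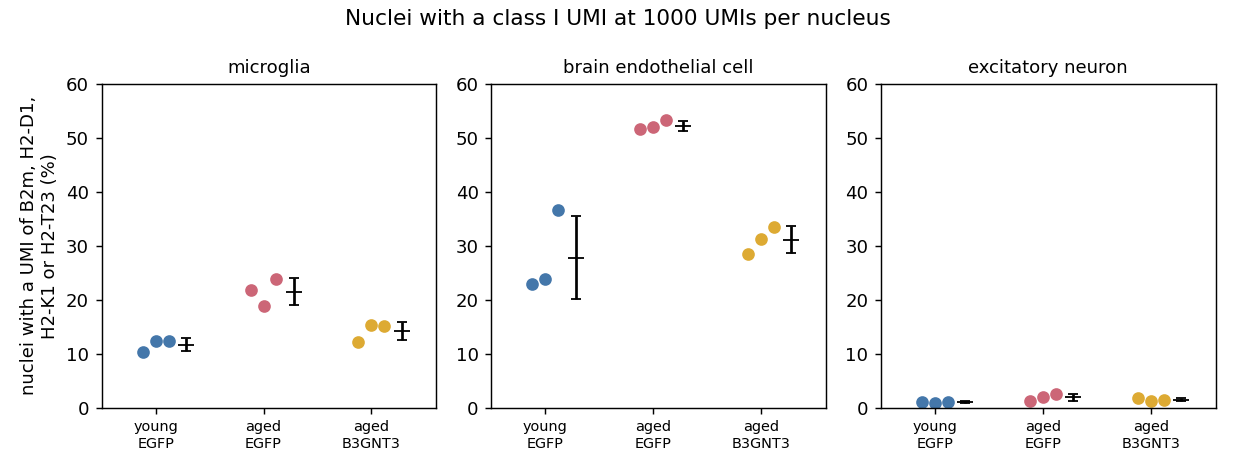
Percent of nuclei with a UMI of B2m, H2-D1, H2-K1 or H2-T23 at 1000 UMIs per nucleus, per mouse and group, in microglia, BECs and excitatory neurons; bars are the mean ± SD over 3 mice. The aged AAV-EGFP mice lie at 51.5 to 53.2% in BECs, above all other mice. Excitatory neurons lie near 0 on this scale, where the aged AAV-EGFP mice are still above the young mice.

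In fibroblasts of the meninges and vessels, H2-K1 rose with age. Among all members and classes, only H2-K1 in fibroblasts passed the test as lower in aged AAV-B3GNT3 than in aged AAV-EGFP mice. It was at 19.5, 39.7 and 28.6 CPM in young mice, 62.1, 83.3 and 85.9 in aged AAV-EGFP mice and 30.5, 29.7 and 36.0 in aged AAV-B3GNT3 mice. The aged AAV-EGFP mice were separate from both other groups, which overlapped. The ageing difference was 2.68-fold (log2 1.42 ± 0.28 SE, adjusted p = 0.0101), and it was lost without aged AAV-EGFP replicate 3 (adjusted p = 0.0655). Of 6 testable members 1 passed for ageing, where 4.77% of 9075 genes did. H2-D1 was at 13.9, 17.2 and 23.8, then 23.9, 41.6 and 52.7, then 18.3, 24.2 and 20.6 CPM (ageing 1.21 ± 0.35, adjusted p = 0.0595). B2m was at 5.58, 17.2 and 12.7, then 33.4, 30.5 and 33.2, then 18.3, 9.91 and 22.3 CPM (1.43 ± 0.44, adjusted p = 0.0731). For both genes every aged AAV-EGFP mouse exceeded every young mouse, but how many of all fibroblast genes separated in this way was not counted. An unadjusted p under 0.05 for ageing was reached by 3 of the 6 members and by 1852 of the 9075 genes.

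The aged AAV-B3GNT3 difference of H2-K1 in fibroblasts was −1.31 ± 0.28 on the log2 scale (adjusted p = 0.0396), 1 of 6 members where 0.860% of genes passed. It depended on single libraries, with an adjusted p of 0.128 and 0.139 without aged AAV-EGFP replicates 2 and 3, and of 0.0976, 0.234 and 0.0584 without aged AAV-B3GNT3 replicates 1, 2 and 3. It was 0.054 with DESeq2, 0.0819 with no doublets removed and 0.0724 with the doublet rate doubled. Microglial markers in the fibroblast class summed to 51.7 to 73.0 CPM in young, 167 to 225 in aged AAV-EGFP and 56.5 to 178 in aged AAV-B3GNT3 mice, 1 of 5 testable markers rose with age, and macrophage markers summed to 0 to 6.62, 5.55 to 110 and 0 to 3.30 CPM. Their part in the H2-K1 differences was not tested. Stat2, Irf9 and Rnf213 in fibroblasts differed with age by −0.29, −0.24 and −0.14 on the log2 scale, with overlapping groups.

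In pericytes, the contractile cells around capillaries, H2-K1 alone had enough counts to test. It was at 14.1, 26.3 and 29.98 CPM in young mice, 38.5, 69.8 and 50.4 in aged AAV-EGFP mice and 22.9, 43.5 and 70.1 in aged AAV-B3GNT3 mice. The young mice lay below all aged AAV-EGFP mice and the aged groups overlapped. The difference with age was 1.27 ± 0.54 (adjusted p = 0.175, with 6.41% of 4943 genes passing), and DESeq2 did not call it. Its unadjusted p was under 0.05, as was that of 1073 of the 4943 genes. Endothelial markers in the pericyte class summed to 310 to 380 CPM in young, 462 to 1407 in aged AAV-EGFP and 386 to 557 in aged AAV-B3GNT3 mice, and 1 of them, the only testable one, rose with age and fell after the treatment. Microglial markers summed to 21 to 134, 81.5 to 180 and 49.6 to 145 CPM. The part of either in the pericyte H2-K1 values was not tested.

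Among glia of neural origin, oligodendrocytes, the myelin-forming cells, had 3 of 6 testable members higher with age, in a class where 20.9% of 13176 genes passed. H2-D1 was at 4.59, 4.86 and 2.35 CPM in young mice, 8.19, 9.69 and 8.40 in aged AAV-EGFP mice and 5.36, 4.41 and 4.82 in aged AAV-B3GNT3 mice. The aged AAV-EGFP mice did not overlap with the others (log2 1.11 ± 0.27, adjusted p = 0.0143), and this call held without any single library. Rnf213 was at 14.1, 14.6 and 14.1 CPM in young mice, 23, 28.6 and 22 in aged AAV-EGFP mice and 21.3, 19.7 and 27.4 in aged AAV-B3GNT3 mice. Both aged groups lay above the young and overlapped with each other (0.78 ± 0.18, adjusted p = 0.0120, also kept without any single library). H2-K1 rose by 0.83 ± 0.25 (adjusted p = 0.0312), from 7.94, 6.47 and 7.34 CPM to 12.1, 14.3 and 12.5, with 12.7, 10.7 and 6.96 CPM in aged AAV-B3GNT3 mice. Its adjusted p became 0.0605, 0.105 and 0.0769 without young replicates 1, 2 and 3 and 0.0899 and 0.0702 without aged AAV-EGFP replicates 2 and 3. Microglial markers in oligodendrocytes summed to 41.8 to 42.8, 39.2 to 58.4 and 47.9 to 54.2 CPM, and their part in these results was not tested.

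In astrocytes 1 of 8 testable members passed for ageing, beside 12% of 12615 genes. This was Tap1, the peptide transporter subunit, at 1.56, 1.01 and 1.98 CPM in young mice, 3.39, 3.45 and 5.46 in aged AAV-EGFP mice and 4.16, 5.23 and 4.17 in aged AAV-B3GNT3 mice. Both aged groups lay above the young without overlap (log2 1.49 ± 0.43, adjusted p = 0.0383), but the gene had 87 UMIs over 9 mice. No young mouse reached the count limit of the test for Tap1, so it entered the test through aged mice. The adjusted p became 0.0839, 0.132 and 0.0624 without young replicates 1, 2 and 3, 0.0776 and 0.19 without aged AAV-EGFP replicates 2 and 3, 0.108 with DESeq2 and 0.0525 with no filter on low counts. Microglial markers in astrocytes summed to 47.2 to 59.4, 58 to 77.9 and 50.6 to 60.4 CPM in the groups, and their part in the Tap1 result was not tested. H2-K1 in astrocytes was at 22.5, 23.9 and 22.9 CPM in young mice, 24.3, 39.4 and 40.3 in aged AAV-EGFP mice and 26.4, 30.9 and 34.2 in aged AAV-B3GNT3 mice (0.60 ± 0.20, adjusted p = 0.0643). The aged AAV-EGFP replicate 1 stood close to the young mice, and without it the difference was 0.81 ± 0.18 (adjusted p = 0.00676).

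In oligodendrocyte precursors 0 of 5 testable members passed for ageing by edgeR and 0 by DESeq2, where 1.34% of 10486 genes passed by edgeR. An unadjusted p under 0.05 was reached by 3 of the 5 and by 1956 of all genes tested. H2-D1 was at 5.94, 6.83 and 2.93 CPM in young mice, 14.4, 10.4 and 17.7 in aged AAV-EGFP mice and 12.4, 6.71 and 8.73 in aged AAV-B3GNT3 mice (1.34 ± 0.38, adjusted p = 0.0888). It passed with no filter on low counts (adjusted p = 0.0419) and with clustering at resolution 1.0 (adjusted p = 0.0433). H2-K1 was at 13.9, 11.8 and 9.76 CPM in young mice, 12.2, 28.5 and 27.7 in aged AAV-EGFP mice and 20.3, 15.9 and 19.5 in aged AAV-B3GNT3 mice. As in astrocytes, aged AAV-EGFP replicate 1 was the low mouse of its group, and leaving it out moved the difference from 0.95 ± 0.32 (adjusted p = 0.131) to 1.24 ± 0.28 (adjusted p = 0.00930).

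**Figure D4:**
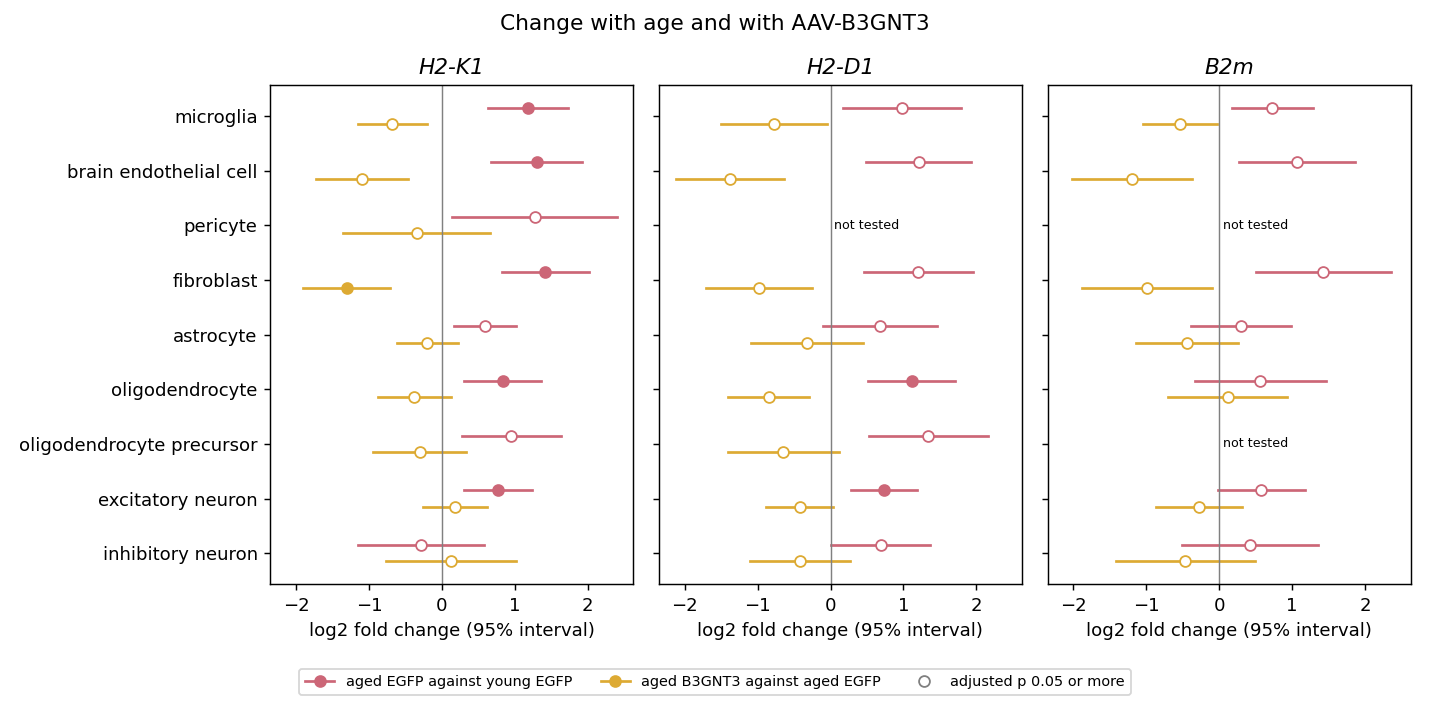
Log2 fold changes with 95% intervals of H2-K1, H2-D1 and B2m in 9 classes, for aged AAV-EGFP against young AAV-EGFP and for aged AAV-B3GNT3 against aged AAV-EGFP; filled points have an adjusted p under 0.05. The ageing points of H2-D1 and B2m all lie to the right of 0, and those of H2-K1 in 8 of 9 classes. Both comparisons share the aged AAV-EGFP mice, and all classes come from the same mice.

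H2-K1 was at its lowest in the neuron classes. In excitatory neurons 4 of 8 testable members passed for ageing, 3 higher and 1 lower, where 14.3% of 16911 genes passed. H2-K1 was at 1.37, 1.18 and 1.10 CPM in young mice, 2.04, 2.09 and 2.09 in aged AAV-EGFP mice and 2.62, 2.21 and 2.23 in aged AAV-B3GNT3 mice. All 3 groups were separate, and the aged AAV-B3GNT3 mice were the highest (ageing log2 0.77 ± 0.21, adjusted p = 0.0342). H2-D1 was at 3.30, 3.21 and 4.12, then 4.32, 6.13 and 7.16, then 5.03, 3.91 and 4.25 CPM (0.73 ± 0.21, adjusted p = 0.0391), and Rnf213 at 3.14, 4.50 and 4.78, then 6.22, 6.72 and 7.69, then 7.07, 7.27 and 8.44 CPM (0.73 ± 0.18, adjusted p = 0.0238). For both genes the young mice lay below the aged AAV-EGFP mice.

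These 3 calls rested on all young mice and on aged AAV-EGFP replicates 2 and 3. Without these libraries in that order, the adjusted p was 0.0567, 0.0968, 0.130, 0.0939 and 0.0867 for H2-K1, 0.102, 0.114, 0.0786, 0.115 and 0.139 for H2-D1 and 0.0674, 0.0505, 0.0575, 0.0694 and 0.0830 for Rnf213. With only both groups in the fit it was 0.0535 for H2-K1 and 0.0531 for H2-D1, and it was 0.0521 for H2-K1 with no filter on low counts. For H2-D1 it was 0.052 with no doublets removed and 0.0596 with the doublet rate doubled. Microglial markers in excitatory neurons summed to 28 to 41.6, 38.2 to 46.2 and 28.3 to 39.2 CPM and endothelial markers to 17.8 to 21.5, 20.8 to 23.8 and 16.6 to 21.8 CPM, groups in the same order. All 4 excitatory calls stayed under the subtraction of free RNA, which uses an assumed share and does not measure RNA from other cells. The part of such RNA in these low values was not tested.

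Irf9, the DNA-binding subunit of the type I interferon factor, fell with age in both neuron classes. In excitatory neurons it was at 11.0, 10.3 and 13.3 CPM in young mice, 5.99, 3.49 and 3.88 in aged AAV-EGFP mice and 5.55, 7.90 and 4.05 in aged AAV-B3GNT3 mice. Both aged groups lay below the young and overlapped with each other (log2 −1.39 ± 0.25, adjusted p = 0.00927), and the adjusted p was 0.0504 without young replicate 3. In inhibitory neurons it was at 10.3, 9.65 and 11.0 CPM in young mice, 5.09, 2.69 and 4.58 in aged AAV-EGFP mice and 7.28, 9.57 and 5.67 in aged AAV-B3GNT3 mice. The 3 groups did not overlap (−1.31 ± 0.26, adjusted p = 0.0434). This was the only 1 of 7 testable members to pass there, where 1.34% of 14426 genes passed. The adjusted p was 0.0879, 0.0717 and 0.12 without young replicates 1, 2 and 3, 0.173 and 0.164 without aged AAV-EGFP replicates 2 and 3, 0.0694 with only both groups in the fit and 0.054 after the subtraction of free RNA. Microglial markers in inhibitory neurons summed to 27.6 to 43.7 CPM in young, 45.6 to 48.7 in aged AAV-EGFP and 32.2 to 44.1 in aged AAV-B3GNT3 mice, and their part was not tested.

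By its estimates, Irf9 was lower with age in 5 of the 6 classes tested, which share their mice, and higher in 1. It was at 4.59, 10.6 and 6.16 CPM in the oligodendrocytes of young mice and 5.02, 3.39 and 2.61 in those of aged AAV-EGFP mice (−0.97 ± 0.38, adjusted p = 0.0876). In oligodendrocyte precursors it was at 5.94, 6.37 and 1.95 CPM in young and 7.6, 15.3 and 7.81 in aged AAV-EGFP mice (1.01 ± 0.45, adjusted p = 0.246). Stat2, its partner, differed with age by −0.29 to 0.56 on the log2 scale over 8 classes, and 0 of 8 passed. In excitatory neurons, where Stat2 had 6044 UMIs, the interval of its difference was −0.43 to 0.13.

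**Figure D5:**
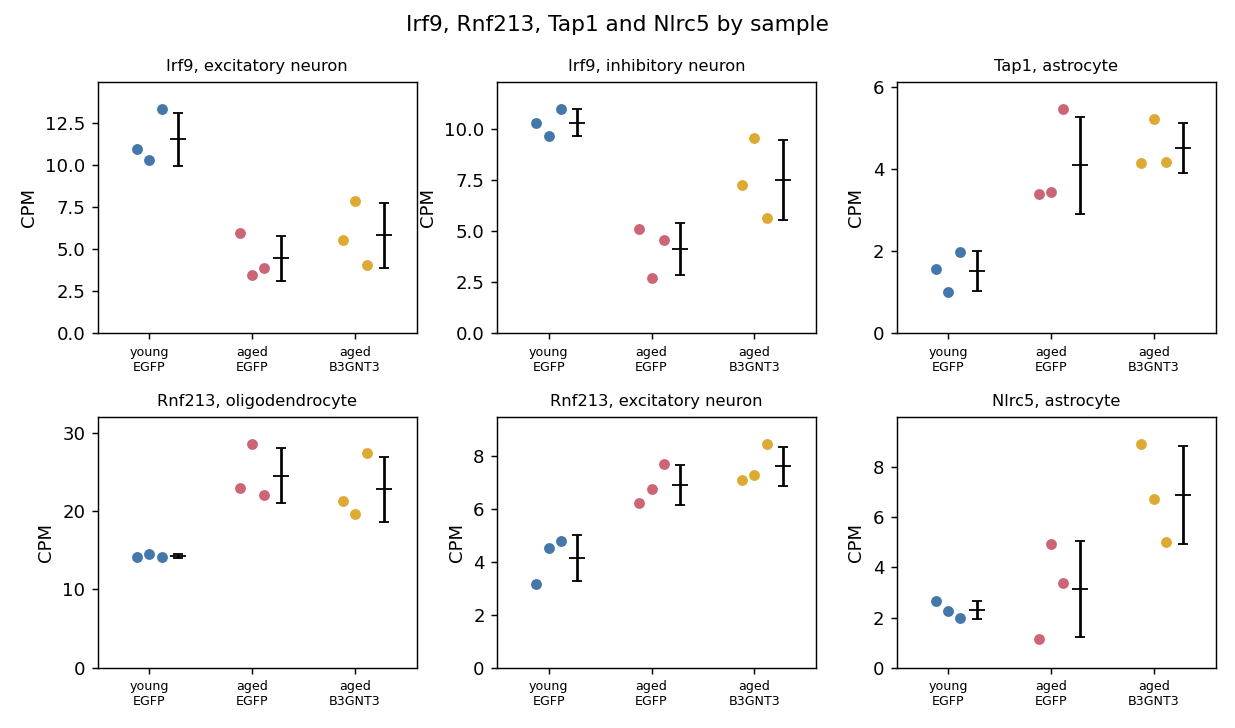
CPM of Irf9 in both neuron classes, of Rnf213 in oligodendrocytes and excitatory neurons and of Tap1 and Nlrc5 in astrocytes, for the 3 mice of each group; bars are the mean ± SD. The young mice lie above both aged groups for Irf9 in each neuron class, and below them for Rnf213 and Tap1.

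Counted over genes and classes, 52 pairs of member and class could be tested for ageing, and 12 passed, 10 higher and 2 lower. H2-K1 accounted for 5, H2-D1, Rnf213 and Irf9 for 2 each and Tap1 for 1. Of all genes tested, 1.34% to 20.9% passed for ageing, depending on the class. The member count was not tested against these percentages, and the members were chosen with earlier results of these data known. The B2m estimate was above 0 in 7 of 7 classes (0.30 to 1.43 on the log2 scale), that of H2-D1 in 8 of 8 (0.68 to 1.34) and that of H2-K1 in 8 of 9 (−0.29 to 1.42), the exception being inhibitory neurons. All classes come from the same mice, so these counts of classes are not independent repeats. How many of all genes kept 1 sign over the classes was not counted. Whether the ageing change differed between microglia and each of 8 other classes was tested as an interaction, with the mouse as a block. Of 63 pairs of member and class, 0 passed by edgeR, 3 had an unadjusted p under 0.05 and the smallest adjusted p was 0.123, while the share of all genes called ran from 0.189% against BECs to 4.54% against excitatory neurons. DESeq2 was not run for this test. Calls in 1 class and not in another therefore do not show that the classes differed.

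Between aged AAV-B3GNT3 and aged AAV-EGFP mice, 1 of 52 pairs passed, the fall of H2-K1 in fibroblasts described above. Of all genes tested, 0.00693% to 8.11% passed in this comparison, depending on the class. Whether the treatment change differed between classes was not tested. The estimates of class I genes were mostly below 0. H2-D1 was lower in 8 of 8 classes (−1.38 to −0.33), B2m in 6 of 7 (−1.20 to 0.11) and H2-K1 in 7 of 9 (−1.31 to 0.18), with excitatory and inhibitory neurons as the exceptions for H2-K1. In contrast Rnf213 and Stat2 were each higher in 6 of 8 classes, within −0.41 to 0.18 and −0.43 to 0.54. This comparison uses the same aged AAV-EGFP mice as the ageing comparison, so high or low values in those 3 mice move both. The classes also share their mice, so these counts of classes are not independent repeats.

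In BECs, the cells the virus is directed to, the treatment differences were −1.38 ± 0.35 for H2-D1 (95% interval −2.13 to −0.63, adjusted p = 0.0728), −1.10 ± 0.30 for H2-K1 (−1.73 to −0.47, adjusted p = 0.0925) and −1.20 ± 0.39 for B2m (−2.03 to −0.38, adjusted p = 0.157). All 3 had an unadjusted p under 0.05, as did 586 of the 4761 genes tested. By edgeR or by DESeq2 0 of 5 members passed, and 0.525% of genes passed by edgeR in this comparison. Without aged AAV-EGFP replicate 1, H2-D1 (adjusted p = 0.0263) and H2-K1 (adjusted p = 0.0349) passed, and with all libraries and no filter on low counts H2-D1 passed (adjusted p = 0.0205). In microglia H2-K1 differed by −0.68 ± 0.23 (adjusted p = 0.162), H2-D1 by −0.78 ± 0.35 (0.30) and B2m by −0.54 ± 0.24 (0.311). An unadjusted p under 0.05 was reached by 3 of 6 members and by 1100 of 7487 genes. By edgeR or DESeq2 0 members were called, and 1.02% of genes passed by edgeR.

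Apart from fibroblasts, the other classes had 0 called members for the treatment by edgeR and by DESeq2. In oligodendrocytes H2-D1 differed by −0.85 ± 0.26 (adjusted p = 0.0594), where 8.11% of genes passed. An unadjusted p under 0.05 was reached by 1 of 6 members and by 3524 of 13176 genes. With the doublet rate doubled H2-D1 passed there (adjusted p = 0.0441), the setting under which the fibroblast call of H2-K1 was lost. At an unadjusted p under 0.05 were 2 of 8 members in astrocytes, beside 2723 of 12615 genes. The same count was 1 of 7 in inhibitory neurons, beside 2335 of 14426 genes. It was 0 of 5 in oligodendrocyte precursors (1263 of 10486 genes), 0 of 1 in pericytes (753 of 4943) and 0 of 8 in excitatory neurons (3915 of 16911). The percentage of all genes called was 4.70%, 0.00693%, 0.210%, 1.11% and 2.54% in these classes, in that order. Nlrc5 in astrocytes was at 1.13, 4.92 and 3.36 CPM in aged AAV-EGFP mice and 8.91, 6.73 and 5 in aged AAV-B3GNT3 mice (1.11 ± 0.42, adjusted p = 0.138). It was thus higher without overlap after the treatment, opposite in sign to the class I genes. Irf9 in inhibitory neurons was higher by 0.84 ± 0.27 (adjusted p = 0.187).

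Aged AAV-B3GNT3 mice were also set against young AAV-EGFP mice, which differ from them in age, source and transgene. Here 4 of 52 pairs passed, all higher in the aged mice, beside 0 to 3.67% of all genes tested, depending on the class. In excitatory neurons H2-K1 (0.94 ± 0.21, adjusted p = 0.0327) and Rnf213 (0.88 ± 0.18, adjusted p = 0.0230) passed, 2 of 8 members beside 3.67% of genes. The H2-K1 call was lost without young replicates 2 (0.138) and 3 (0.162) and without aged AAV-B3GNT3 replicates 1 (0.126), 2 (0.0562) and 3 (0.0749), and that of Rnf213 without young replicates 2 (0.0748) and 3 (0.0689) and aged AAV-B3GNT3 replicates 1 (0.0625) and 3 (0.0808). In astrocytes Tap1 (1.61 ± 0.40, adjusted p = 0.0452) and Nlrc5 (1.55 ± 0.39, adjusted p = 0.0487) passed, 2 of 8 members beside 2.79% of genes. Nlrc5 was at 2.67, 2.26 and 1.98 CPM in young mice, below each aged AAV-B3GNT3 mouse. For both genes no young mouse reached the count limit of the test, while each aged AAV-B3GNT3 mouse did. Both therefore entered the test through the group in which they were higher, which limits what these calls show. Both astrocyte calls were lost whichever of the 6 libraries was left out, with an adjusted p of 0.0792 to 0.202 for Tap1 and 0.0576 to 0.266 for Nlrc5, and DESeq2 gave 0.116 and 0.0778. After the subtraction of free RNA they were 0.0636 and 0.076.

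The intervals of class I genes in the vascular and immune classes were wide and included 0. In BECs H2-K1 differed by 0.20 (95% interval −0.45 to 0.85), H2-D1 by −0.17 (−0.94 to 0.60) and B2m by −0.13 (−0.98 to 0.72). In microglia H2-K1 differed by 0.50 (−0.05 to 1.06) without overlap of the groups, and in pericytes by 0.92 (−0.18 to 2.02, adjusted p = 0.651) with overlap. In microglia, BECs and fibroblasts 0 members passed by edgeR or DESeq2 and 0 had an unadjusted p under 0.05, and 0% of all genes tested passed, where 742, 295 and 932 genes had an unadjusted p below 0.05. The percentage of genes called was 0.121% in pericytes, 1.55% in oligodendrocytes, 0.172% in oligodendrocyte precursors and 0.534% in inhibitory neurons, and the members called there were 0 of 1, 0 of 6, 0 of 5 and 0 of 7 by either tool. At an unadjusted p under 0.05 there were 0, 2, 0 and 2 members, beside 426, 2144, 1171 and 1984 of all genes tested. Irf9 in excitatory neurons, at −0.99 ± 0.25, was just outside (adjusted p = 0.0507), and DESeq2 gave an adjusted p of 0.00444.

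The rest of the pathway was taken from 7 lists with 141 further genes, covering class I heavy chains, peptide loading, class II genes, interferon signalling, nucleic acid sensing, type I interferon-stimulated genes and interferon-gamma-inducible GTPases. In microglia 5 of 57 testable list genes (8.77%) rose with age and 0 fell, a share close to the 8.47% of all genes that passed. DESeq2 called 1 of the 57. Sp100, a nuclear body protein, rose by 1.51 (adjusted p = 0.0124), from 12.6 to 37.5 CPM in young to 61.9 to 90.1 in aged AAV-EGFP mice, with 57.2 to 71.5 in aged AAV-B3GNT3 mice. Stat3, a cytokine signalling factor, rose by 0.74 (0.0324), the GTPase Gbp7 by 1.90 (0.0357), and the antiviral regulators Trim30a by 0.69 (0.0489) and Trim25 by 1.57 (0.0489). For the treatment 0 of 57 passed by edgeR or DESeq2. An unadjusted p under 0.05 was reached by 2 of the 57 and by 1100 of all 7487 genes. Gbp7 was as high in aged AAV-B3GNT3 mice, at 29.7 to 36.2 CPM, as the 13.5 to 47.5 CPM of aged AAV-EGFP mice, with a treatment difference of −0.09.

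In BECs 1 of 32 list genes passed for ageing by edgeR, beside 1.62% of all genes, and 0 by DESeq2. At an unadjusted p under 0.05 were 3 of the 32, beside 764 of 4761 genes. Ifitm3, a membrane protein that restricts virus entry, rose by 1.76 ± 0.42 (adjusted p = 0.0495), from 36.1 to 59.8 CPM in young to 139 to 209 in aged AAV-EGFP mice, and was at 28.9 to 104 CPM in aged AAV-B3GNT3 mice. It had the pattern of H2-K1 over the groups, with a treatment difference of −1.62 (adjusted p = 0.0915). For the treatment 0 of 32 list genes passed by edgeR or DESeq2. At an unadjusted p under 0.05 were 7 of the 32, beside 586 of 4761 genes. Of the 9 class II genes, which present extracellular peptides to CD4 T cells, 0 could be tested in microglia or BECs.

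Type I interferon-stimulated genes were among the list genes that rose with age in 5 other classes. In astrocytes 4 of 58 list genes rose with age and 1 fell (8.62%, under the 12% of all genes), with Ifit3 (2.47, adjusted p = 0.00482) and Ifit2 (1.52, 0.0229), which bind viral RNA or its translation machinery, as the leading genes. In oligodendrocytes 8 of 49 rose (16.3%, under the 20.9% of all genes), led by Xaf1 (1.0, 0.00299) and Ifih1 (2.31, 0.00440), a sensor of double-stranded RNA. In fibroblasts 1 of 52 passed (1.92%, under the 4.77% of all genes), Oasl2 (1.84, 0.0291), whose range of 23.9 to 133 CPM in aged AAV-EGFP mice overlapped with the 23.8 to 27.9 CPM of young mice. In excitatory neurons 9 of 81 rose and 5 fell (17.3%, beside 14.3% of all genes), with the loading chaperone Pdia3 lower by −0.77 (0.00938). In inhibitory neurons the RNA-activated kinase Eif2ak2 rose (1.5, 0.0388) and Jak2 fell (−0.68, 0.0395) among 53 (3.77%, beside 1.34% of all genes). In pericytes and oligodendrocyte precursors 0 of 17 and 0 of 43 passed by edgeR or DESeq2. At an unadjusted p under 0.05 were 2 and 12 of them, beside 1073 of 4943 and 1956 of 10486 genes. For the treatment, 1 of 49 list genes rose and 4 fell in oligodendrocytes (10.2%, beside 8.11% of all genes), 1 of 81 rose and 2 fell in excitatory neurons (3.70%, beside 2.54%) and 1 of 58 fell in astrocytes (1.72%, beside 4.70%). The interferon-stimulated gene Ifi27, named after its values were seen, was among those that fell in each of these 3 classes. For ageing, DESeq2 called 2 list genes in astrocytes, 4 in oligodendrocytes, 2 in fibroblasts, 17 in excitatory neurons and 2 in inhibitory neurons. These shares of list genes stand beside the percentages of all genes given above and were not tested against them.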

How the data were processed

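Nuclei of pooled cortex and hippocampus were sorted as singlets by a DNA dye and sequenced with 10x 3′ v3.1 chemistry. The authors deposited filtered matrices of raw UMI counts aligned to GRCm38. The matrix headers name Cell Ranger 7.2.0 and the submitters' processing notes 4.0.0. Whether intronic reads or strand were used in counting was not given in the sources used here.

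Of 77823 barcodes, 74895 had 200 to 5000 genes and at most 10% mitochondrial UMIs. The highest doublet scores per sample (0.8% per 1000 barcodes), 4506 nuclei, were removed. Nuclei were clustered (Leiden, resolution 0.3, 15 principal components, 2000 variable genes without the members, the list genes and mitochondrial genes) and named by at least 3 markers, which left 5803 of the 70389 nuclei unnamed. Choroid plexus cells, with 126 nuclei, were not tested.

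Counts were summed per mouse and class. All 9 mice entered 1 edgeR 4.0.16 quasi-likelihood fit per class (R 4.3.3, TMM scaling, filterByExpr with a minimum count of 10, two-sided, Benjamini-Hochberg over all genes of a class and comparison, threshold 0.05). DESeq2 1.42.0 was an alternative. Another subtracted free RNA as an assumed 5% of each sum, with the profile of all kept nuclei of the mouse. The level of free RNA was not measured. Error terms after ± are the SE of log2 fold changes or, for levels, the SD. P-values measure the spread between mice. Intervals, shares and floors on counts cover counting error only where they concern 1 sample.

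Named were the 9 members, in microglia and BECs the up to 6 list genes with the smallest adjusted p under 0.05 in ageing or treatment, in other classes up to 2, and per member the 2 genes with the most similar class profile among those with at least 10 CPM in some class. The members and lists were chosen with earlier results of these data known. On simulated counts with 200 genes changed 2-fold, the ageing test recovered 118 in microglia, 60 in BECs and 169 in excitatory neurons. The changed genes were drawn only from genes above a higher count limit than that of the test. All genes of a class were simulated with the same spread between mice. Members with few counts, such as Tap1 in astrocytes with 87 UMIs, lay below that limit, and recovery at such counts was not simulated. Replicates differed by more than sampling noise in every group, so no library was counted as a duplicate. A further motif that was searched is not reported here.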

Additional observations from a re-analysis of the deposited data

How the results depend on the processing

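The 12 ageing calls, each a pair of member and class, became 7 with only the groups compared in the fit, all of them among the 12, and 4 to 20 when 1 library was left out. Without aged AAV-EGFP replicate 1 there were 20, which held all 12, and without aged AAV-EGFP replicate 3 or young replicate 3 there were 4. The cause was not tested. DESeq2 gave 11 calls, no filter on low counts 16 and the subtraction of free RNA 10. The DESeq2 calls held H2-T23 in oligodendrocytes (adjusted p = 0.0398) and in excitatory neurons (0.0402), which were not among the 12. With no filter, B2m in fibroblasts (adjusted p = 0.0483), Irf9 (0.0296) and H2-T23 (0.00527) in oligodendrocytes and H2-T23 in excitatory neurons (0.0361) also passed for ageing, and Rnf213 in oligodendrocytes (0.0287) for aged AAV-B3GNT3 against young. The single treatment call became 0 with DESeq2 and with no doublets removed, 2 with no filter on low counts and 0 to 5 when 1 library was left out, with 5 again without aged AAV-EGFP replicate 1. The 4 calls of aged AAV-B3GNT3 against young mice became 2 after the subtraction of free RNA and 0 to 2 when 1 library was left out.

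Deviations of same-numbered mice of different groups correlated at −0.266 to 0.242 over classes and pairs of groups, and the numbers were not taken as pairs. For replicate 1, young and aged AAV-B3GNT3 mice correlated above 0 in all classes but BECs. The replicate 1 mice of the aged groups correlated below 0 in all classes. Mice with different numbers were not correlated, so there is no baseline for these values. With the replicate number as a block, 9 pairs of member and class passed for ageing, 1 for the treatment and 1 for aged AAV-B3GNT3 against young. The ageing pairs not called under the block were H2-K1 in BECs (adjusted p = 0.0506), Tap1 in astrocytes (0.0636) and Irf9 in inhibitory neurons (0.075), and for aged AAV-B3GNT3 against young H2-K1 in excitatory neurons (0.0567), Tap1 in astrocytes (0.0631) and Nlrc5 in astrocytes (0.0677). No called difference changed sign under any alternative, whereas uncalled estimates changed sign in at least 1 alternative for 7 of 40 pairs in ageing, 16 of 51 in the treatment and 11 of 48 in aged AAV-B3GNT3 against young. The interaction test called 0 pairs in every alternative run. The differences in the share of nuclei kept their sign, but their size depended on the depth. In BECs the ageing difference was 13.3 percentage points at 500 UMIs and 14.8 with no fixed depth, against 24.4 at 1000, and the treatment difference −11.6 and −11.4, against −21.1. In microglia the ageing difference was 5.51 and 8.37, against 9.81, and the treatment difference −4.07 and −5.11, against −7.28. Of simulated 2-fold changes in genes above the count limit of the simulation, 30% were recovered in BECs, 60% in pericytes and 84.5% in excitatory neurons.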

Other observations

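An unnamed cluster of 295 nuclei, 17 to 49 per mouse, was led by Mrc1 and F13a1, genes known from macrophages at the borders of the brain, and entered no comparison above. H2-K1 in this cluster, as CPM without scaling, was at 157, 74.3 and 113 in young AAV-EGFP mice, 183, 197 and 191 in aged AAV-EGFP mice and 253, 184 and 229 in aged AAV-B3GNT3 mice, from 143 UMIs. Both aged groups lay above the young, and the aged AAV-B3GNT3 mice reached the highest values, whereas in microglia the aged AAV-EGFP mice were the highest. Nlrc5, the class I transactivator, was at 34.9, 41.3 and 94.4 CPM in young mice, 86.7, 84.6 and 128 in aged AAV-EGFP mice and 126, 128 and 128 in aged AAV-B3GNT3 mice, from 80 UMIs. B2m averaged 65.0, 105 and 63.8 CPM and H2-D1 61.4, 60.8 and 56.1 CPM in the 3 groups. No test was run on this cluster.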
